A study of Mus musculus with 32 samples.

Results

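Gene expression in the spinal cord was compared between G93A and wildtype (WT) mice that had both received OKN-007, at 155 days of age. The comparison used all mice whose labels give that treatment and that age, 4 G93A mice (replicates 13 to 16) and 4 WT mice (replicates 5 to 8), which is 8 of the 32 mice sequenced. G93A mice carry a human SOD1 transgene with the G93A mutation on the C57BL/6J background, and the WT mice were littermates without it. According to the study's methods, OKN-007 was given in the drinking water and the experimental mice were predominantly female, with females alone used at the higher of its doses. Its cohorts killed at this age received that higher dose, and the sample labels name neither a dose nor a cohort. Both groups carried the treatment, so the comparison describes the disease signature under OKN-007 and not the effect of the compound. Untreated G93A and WT mice of the same age and treated mice of the earlier age, which the labels give as 90 days and the paper as 95 days, 4 in each group, were used to show where the signature differs. The transgene is driven by the human SOD1 promoter and is active in most cell types of the animal, so it is not limited to motor neurons. Its expression was not analysed here.

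Amyotrophic lateral sclerosis (ALS) is a disease in which the motor neurons of the spinal cord and brain die and muscles waste. Mutant SOD1 misfolds and is toxic to motor neurons through several routes, and microglia and astrocytes around the failing neurons take on reactive states. Activated microglia that have sensed lipid and debris through the receptor TREM2 turn on a characteristic set of genes for phagocytosis and lipid handling, and reactive astrocytes increase their intermediate filaments. OKN-007 is a nitrone compound with antioxidant and anti-inflammatory properties.

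Between 24741535 and 29705155 reads were counted on genes in each of the 8 mice, so that 3 counts corresponded to 0.102 to 0.122 CPM (counts scaled to a common library size), which allows for error of counting alone. No pair of libraries within the groups was identical, and the closest pair differed with a chi-square of 5.84 per gene. CPM values given here were scaled by edgeR's TMM factors, which lay between 0.991 and 1.032 in these mice. The p-values come from edgeR's quasi-likelihood test with Benjamini-Hochberg adjustment over all genes tested, and a gene was called at an adjusted p under 0.05. The tests at 155 days share an estimate of the spread between mice within a group. It was made from all 16 mice of that age, untreated mice included. The mouse Sod1 gene was at 247, 246, 252 and 265 CPM in the treated G93A mice and at 285, 242, 294 and 253 CPM in the treated WT mice, and the groups overlapped (adjusted p = 0.491).

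At 155 days, 7747 of the 18675 genes tested (41.5%) were called between treated G93A and treated WT mice, of which 4346 were higher in G93A mice (23.3% of all genes tested) and 3401 lower (18.2%). At an unadjusted p under 0.05 there were 9134 genes (48.9%). The groups did not overlap in 8221 genes (44%), and in 7077 of them (37.9%) the gene was also called. The increases were larger than the decreases. Called increases had a median log2 fold change of 0.73, and called decreases one of -0.47. A difference beyond 2-fold, tested as such, was found in 960 genes (5.14%), in 930 that were higher (4.98%) and in 30 that were lower (0.161%). Of the called genes, 127 rose and 1 fell by more than 4 on the log2 scale. The gene that fell so far was Sult5a1, a sulfotransferase named here after its values were seen. It was at 79.1 CPM in WT replicate 6 and at 0.0733 to 0.14 CPM in the other WT mice, against 0.0679 to 0.52 CPM in G93A mice, and without that mouse it was not called (log2 fold change 1.28, adjusted p = 0.122). On a first principal component that held 63.4% of the variance among the 16 mice of this age, treated G93A mice lay between 40.8 and 63.2 and treated WT mice between -55.0 and -48.6.

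**Figure D1:**
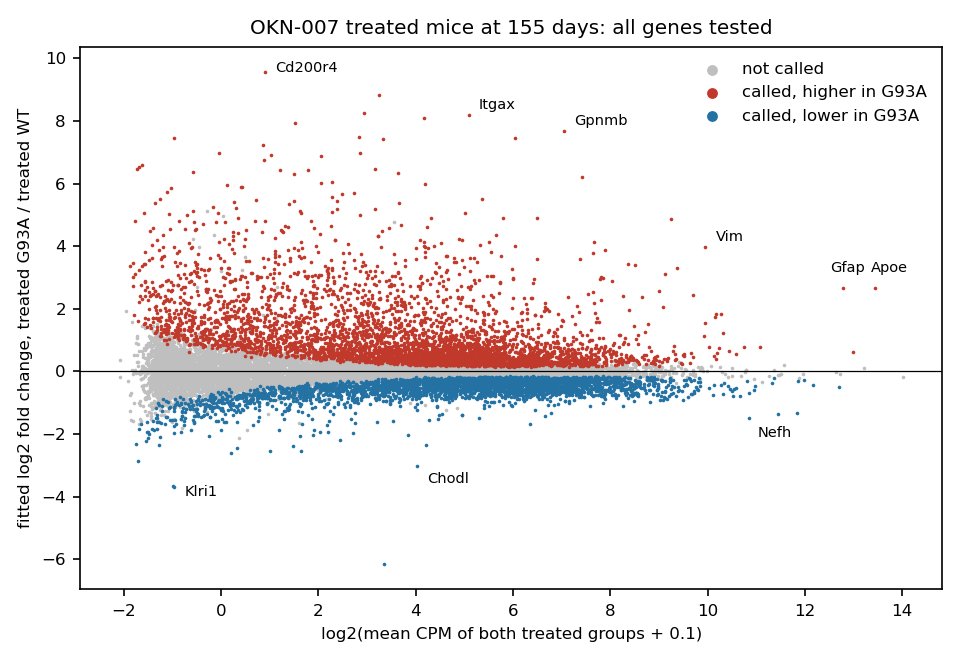
Each point is 1 of the 18675 genes tested in OKN-007 treated mice at 155 days, with its mean level on the x axis (log2 of mean CPM plus a pseudocount) and the fitted log2 fold change of G93A over WT mice on the y axis. Called increases (4346 genes) reach higher fold changes than called decreases (3401 genes), and the lowest point is Sult5a1, which rests on 1 WT mouse.

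The genes with the largest increase among those with groups that did not overlap included several genes of activated microglia and macrophages. Itgax, the integrin CD11c of activated microglia and dendritic cells, was at 79.4, 67.4, 68.5 and 55.2 CPM in treated G93A mice and at 0.228, 0.215, 0.183 and 0.279 CPM in treated WT mice (log2 fold change 8.19, standard error 0.26, adjusted p = 9.75e-14). Every G93A mouse lay above every WT mouse. Gpnmb, a membrane glycoprotein of phagocytes, was at 353, 300.2, 215 and 187 CPM against 1.10, 0.968, 1.57 and 1.5 CPM (log2 fold change 7.67, standard error 0.37). Clec7a, the beta-glucan receptor Dectin-1, was at 153, 136, 126 and 111 CPM against 0.761, 0.753, 0.879 and 0.593 CPM (log2 fold change 7.46, standard error 0.26). Replicate 16 had the lowest level of the treated G93A mice in each of these genes, and replicate 13 the highest. Cst7, the protease inhibitor cystatin F, had a log2 fold change of 8.08 (standard error 0.33). Mmp12, the macrophage elastase, was at 22.6, 19.1, 16.4 and 16.9 CPM against 0.038, 0, 0.0366 and 0.0698 CPM, and the proton pump subunit gene Atp6v0d2 at 18.1, 18.4, 13 and 10.9 CPM against 0 to 0.108 CPM. In WT mice both were at 3 counts or fewer in each library, so no fold is given for them. Cdsn, known as a protein of skin cell junctions, was at 4.52 to 7.42 CPM against 0 to 0.038 CPM. Cd200r4, of the CD200 receptor family, and Gm43351, a gene model of no named function, had 0 counts in every treated WT mouse. With 3 counts in each WT library taken as the floor, Cd200r4 was at least 30.9-fold higher and Gm43351 at least 7.16-fold higher. Tgm1, a transglutaminase, was at 16.1, 16.7, 16.4 and 6.65 CPM against 0 to 0.143 CPM (log2 fold change 7.50, standard error 0.51), with replicate 16 again the lowest.

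Among genes with groups that did not overlap, several of the largest decreases were of genes near or under 1 CPM. Klri1, a receptor of NK cells, was at 0 to 0.122 CPM in treated G93A mice and at 0.646, 0.968, 0.623 and 0.837 CPM in treated WT mice, and the cytokine gene Il1f9 at 0 to 0.122 CPM against 0.761, 0.538, 0.696 and 1.01 CPM. The G93A mice were at 3 counts or fewer in both genes, so no fold is given. Il1f9 was not called in a fit that also held a caudal Hox score, described with the Hox genes. Aqp6, an aquaporin, was at 0.347, 0.405, 0.238 and 0.449 CPM against 1.67, 2.51, 1.65 and 2.02 CPM (log2 fold change -2.45, adjusted p = 1.95e-05), and the unnamed transcripts A330087D11Rik and ENSMUSG00000118426 changed by -2.60 and -2.86. The other five were Chodl and Vipr2, given with the motor neuron genes, and Hoxd10, Hoxd11 and Hoxd13, given with the Hox genes.

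By gain in mean CPM, the called genes with the largest increases were Apoe, Gfap, Fth1, Vim and Ctsb. Fth1, the heavy chain of the iron store ferritin, was at 10844, 9353, 9419.8 and 9936 CPM in treated G93A mice and at 6855, 5997, 7345 and 5574 CPM in treated WT mice (log2 fold change 0.62). Ctsb, a lysosomal cathepsin, was at 2173, 1930.5, 1987 and 1615 CPM against 516, 539, 557 and 535 CPM (log2 fold change 1.84). Meg3, a long noncoding RNA of neurons and one of the called genes with the largest losses, was at 5472, 5755, 5586 and 5417 CPM against 7457, 7637, 8318 and 7928 CPM (log2 fold change -0.50). Meg3 was not called in the fit with the Hox score. The 930 genes higher beyond 2-fold held 8.58%, 7.89%, 7.71% and 6.5% of the CPM of the treated G93A mice and 1.36% to 1.51% of that of the treated WT mice, which describes genes chosen on these mice.

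The promoters of genes that changed were searched for 5 motifs. PU.1 is a factor of myeloid cells, and its motif was searched as GAGGAAGT. The interferon response motif was searched as a pair of GAAA runs with any 2 bases between them, the CLEAR motif of lysosomal genes as GTCACGTG, the E-box as CACGTG, which lies inside the CLEAR motif, and the cyclic AMP response element (CRE) as TGACGTCA. Both strands were searched in a window from 250 bases before to 50 after a gene's start. RefSeq promoters of build GRCm38.p6 were matched for 12785 of the genes tested, with 16297 windows. The PU.1 motif lay in 2.86% of all windows, in 7.96% of the 854 windows of genes higher beyond 2-fold in 2.01% of the 3282 windows of all genes that were lower and in 2 of the 20 windows of genes lower beyond 2-fold. The interferon response motif lay in 3.06%, 7.85% and 2.56% of them and in 0 of the 20. In genes higher beyond 2-fold, the other three were found less often than in all windows, CLEAR in 2.22% against 3.61%, the E-box in 7.26% against 9.25% and CRE in 1.05% against 2.8%, and none of these differences was tested. A match is a description of the letters and no evidence of binding. Of the genes with the largest increases, 8 of 10 had a window, and 2 of them held a match to any of the motifs, Mmp12 and Tgm1, both on the strand opposite to the gene. Their windows are shown with the matched letters in capitals, for Mmp12 at chr9:7344147-7344446 on the plus strand (PU.1 motif) and for Tgm1 at chr14:55713443-55713742 on the minus strand (interferon response motif), both of GRCm38.p6.
Mmp12: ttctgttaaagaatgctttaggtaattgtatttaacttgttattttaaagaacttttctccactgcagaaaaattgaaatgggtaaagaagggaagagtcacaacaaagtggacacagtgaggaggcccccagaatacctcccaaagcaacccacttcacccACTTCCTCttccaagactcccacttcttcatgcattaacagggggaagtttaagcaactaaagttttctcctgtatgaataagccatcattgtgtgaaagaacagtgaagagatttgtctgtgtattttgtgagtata
Tgm1: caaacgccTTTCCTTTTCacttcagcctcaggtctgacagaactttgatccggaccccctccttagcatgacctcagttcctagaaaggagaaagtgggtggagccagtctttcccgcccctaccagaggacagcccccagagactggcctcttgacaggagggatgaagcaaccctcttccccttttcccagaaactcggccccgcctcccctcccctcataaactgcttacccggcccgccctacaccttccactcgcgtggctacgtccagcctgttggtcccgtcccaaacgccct

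**Figure D2:**
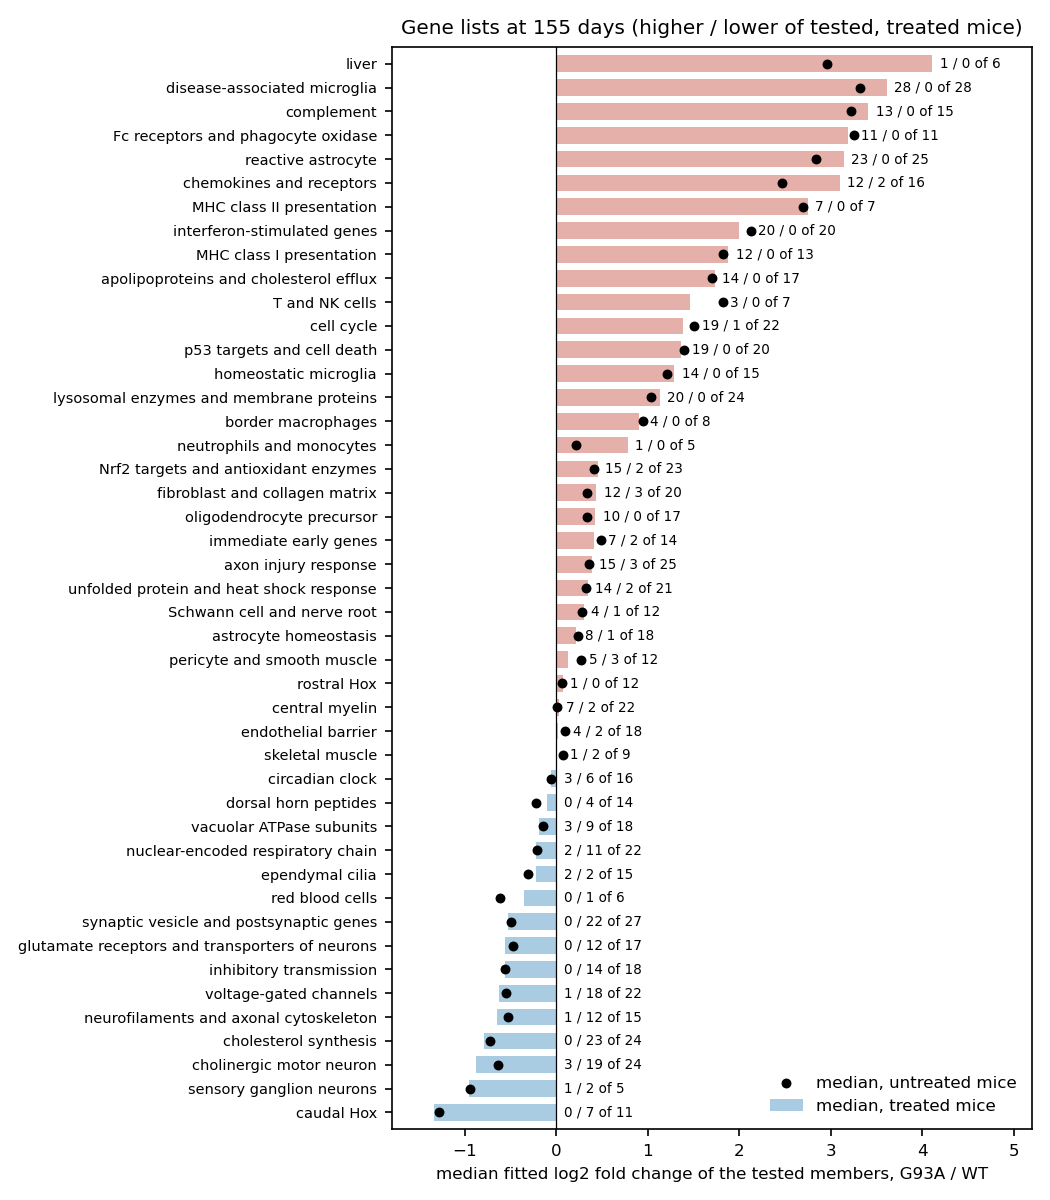
Median log2 fold change of G93A over WT mice at 155 days for the tested members of each gene list with 5 or more tested (bars: treated mice; points: untreated mice), with the number of members higher and lower of those tested in treated mice. Microglial, complement and reactive astrocyte lists lie at the high end and caudal Hox, sensory ganglion, motor neuron and cholesterol synthesis lists at the low end. The liver list, at the top, rests on replicate 15. The called lower genes of the sensory ganglion list are Nefh and Isl2, which other neuronal lists share.

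Microglial genes rose together. All 28 tested genes of the disease-associated microglia list were higher in treated G93A mice, 24 of them beyond 2-fold, and their median log2 fold change was 3.61, beside a median of 0.0181 over all genes tested. Because whole tissue was sequenced, more cells of a type and more RNA per cell cannot be told apart, here and for each cell type that follows. Trem2, the lipid-sensing receptor of microglia, was at 102, 87.7, 80.3 and 73.1 CPM in treated G93A mice and at 5.48, 4.55, 5.71 and 3.73 CPM in treated WT mice (log2 fold change 4.14, standard error 0.21, adjusted p = 4.56e-11), and the groups lay far apart. Tyrobp, which encodes its signalling adaptor, was at 90.9, 78.5, 67.9 and 63.4 CPM against 4.09 to 4.91 CPM (log2 fold change 4.04). Apoe, the main lipid carrier of the nervous system, was at 21592, 20279, 18487 and 16629 CPM against 3234, 2895, 3319.5 and 2807 CPM (log2 fold change 2.65, standard error 0.20).

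Genes that mark resting microglia were higher too. Of 15 tested genes of the homeostatic microglia list, 14 rose and none fell, with a median log2 fold change of 1.29. P2ry12, the purinergic receptor of resting microglia, was at 29.3, 25.3, 24.7 and 26.5 CPM against 16.8, 19.2, 19.8 and 14.2 CPM (log2 fold change 0.60, adjusted p = 0.00141), a small gap between groups that did not overlap. Tmem119 rose by a log2 fold change of 0.95, the fractalkine receptor Cx3cr1 by 2.39 and Fcrls by 4.02.

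Genes of complement, antigen presentation and interferon responses followed the same direction. In the complement list, 13 of 15 tested genes were higher and none lower (median log2 fold change 3.41). C1qa, a chain of the first complement component, was at 499, 457, 439 and 374 CPM in treated G93A mice and at 30.8, 27.2, 31.6 and 29.9 CPM in treated WT mice (log2 fold change 3.89, standard error 0.21), and C3ar1, the receptor of a fragment of C3, rose by 4.90. Among chemokines and their receptors, 12 of 16 tested genes rose and 2 fell (median 3.10). Ccl3, a chemokine for monocytes, was at 16, 13.9, 14.7 and 12.3 CPM against 0.038, 0.108, 0.183 and 0.105 CPM (log2 fold change 6.97), and Ccl4 changed by 6.89. Ccl2, another such chemokine, was at 1.56, 1.99, 1.15 and 1.47 CPM against 0 to 0.11 CPM. The 2 that fell were Cx3cl1, the neuronal ligand of Cx3cr1 (-0.32), and Ackr1, a scavenging chemokine receptor of venules and red cells (-0.56). Ackr1 was not called in the fit with the Hox score.

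Of the MHC class I list, 12 of 13 tested genes rose (median 1.88), B2m among them at 555, 575, 525 and 410.2 CPM against 93, 96.7, 93.5 and 103 CPM (log2 fold change 2.42). All 7 tested genes of MHC class II presentation rose (median 2.75). H2-Aa, a class II alpha chain, was at 4.96, 7.10, 6.75 and 6.81 CPM against 0.875, 1.15, 1.10 and 0.663 CPM (log2 fold change 2.75), and Cd74, the invariant chain, changed by 3.57. All 20 interferon-stimulated genes were higher (median 2, from 0.3 to 4.44; 19 of 20 under each other scaling). Ifit1, which binds viral RNA, changed by 1.88, and the GTPase gene Mx1 had the highest log2 fold change of the list, 4.44. The 11 tested Fc receptors and subunits of the phagocyte oxidase rose as well (median 3.19), with Cybb, the catalytic subunit of that oxidase, at 39.4, 41.3, 31.7 and 30.1 CPM against 0.532, 0.287, 0.916 and 0.488 CPM (log2 fold change 5.99, standard error 0.28).

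Lysosomal genes were split between enzymes and the proton pump. Of 24 tested lysosomal enzymes and membrane proteins, 20 rose and none fell (median 1.13). Ctsz, a cathepsin, was at 473, 409, 366 and 338 CPM in treated G93A mice and at 46.6, 49.4, 54.0 and 47.1 CPM in treated WT mice (log2 fold change 3.01, standard error 0.17), whereas Lamp1, the abundant membrane protein of lysosomes, rose by only 0.65. Among 18 subunits of the vacuolar ATPase, which acidifies lysosomes and synaptic vesicles, 9 fell and 3 rose (median -0.19). Atp6v0a1 was lower at 205, 222, 231 and 231 CPM against 273, 365, 269 and 325 CPM (log2 fold change -0.47, adjusted p = 0.000776). The 3 that rose were Atp6v0d2, given above, Atp6v0e (0.92) and Atp6v1g1 (0.33). In a fit that also held a caudal Hox score, described with the Hox genes, 4 of the subunits were lower in place of 9.

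In the reactive astrocyte list, 23 of 25 tested genes rose, none fell and 21 changed beyond 2-fold (median 3.14). Gfap, the intermediate filament of astrocytes, was at 12890.3, 12163, 12853 and 10674 CPM in treated G93A mice and at 2008, 1905, 2096 and 1720.5 CPM in treated WT mice (log2 fold change 2.65, standard error 0.11, adjusted p = 3.88e-12). Vim, the filament gene vimentin, was at 2247, 1836, 1914 and 1431 CPM against 121, 121, 122 and 111 CPM (log2 fold change 3.97). Serpina3n, a secreted protease inhibitor, rose by 4.87 and Timp1, an inhibitor of matrix metalloproteases, by 6.48.

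Of 18 genes of astrocyte homeostasis, 8 rose and 1 fell (median 0.21), a share near that called over all genes (41.5%). Slc1a2, the main glutamate transporter, was at 1122, 1104, 1185 and 1155 CPM against 978, 1077, 955 and 1067 CPM, and was not called although the groups did not overlap (log2 fold change 0.16, adjusted p = 0.0779). Slc1a3, the other glial glutamate transporter, rose by 0.41, and the water channel gene Aqp4, at 1497, 1612, 1549 and 1236 CPM against 516, 511, 494 and 503 CPM, by 1.54. The member that fell was Slc7a10, a transporter of small neutral amino acids (-0.94).

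**Figure D3:**
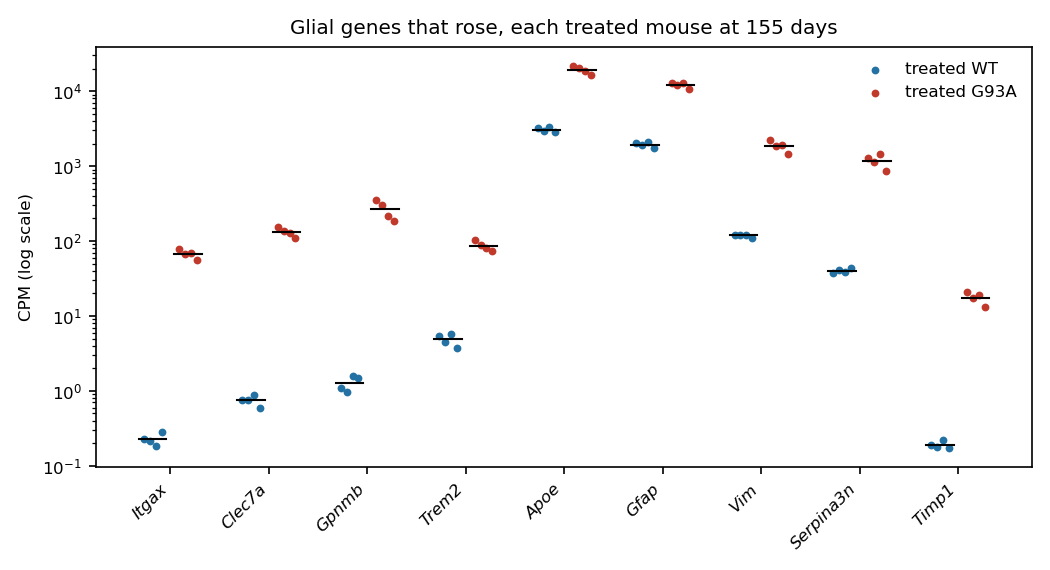
CPM on a log scale of 9 glial genes in each treated mouse at 155 days (points; lines are group means of 4 mice). In each gene the 4 G93A mice lie above the 4 WT mice, from Gfap at 10674 CPM or more against 2096 CPM or less to Itgax at 55.2 CPM or more against 0.279 CPM or less.

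Lipid genes moved in opposite directions by role. Of 24 tested genes of cholesterol synthesis and its regulation, 23 were lower in treated G93A mice and none higher (median -0.79). Insig1, which retains the transcription factor of the pathway, was at 52.9, 44.8, 56.4 and 63.8 CPM against 152, 148, 155 and 135 CPM (log2 fold change -1.44, standard error 0.12, adjusted p = 1.50e-08), and the groups did not overlap. Hmgcs1, of the first steps of the pathway, fell by 0.97 on the log2 scale and Sqle, which oxidizes squalene, by 0.93. Ebp, named after its values were seen, was the member that was not called (0.12, adjusted p = 0.261). Among apolipoproteins and genes of cholesterol efflux, 14 of 17 tested rose and none fell (median 1.73). Abca1, which loads cholesterol onto apolipoproteins, was at 132, 121, 146 and 100 CPM against 26, 23.9, 22.8 and 25.5 CPM (log2 fold change 2.35), Lpl, lipoprotein lipase, rose by 4.89 and Ch25h, which makes an oxysterol from cholesterol, by 5.18. The counts of both lists were 22 to 23 and 14 to 15 when each treated mouse was left out in turn, and 22 and 14 with the Hox score as a covariate.

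Motor neuron genes fell. Of 24 tested genes of the cholinergic motor neuron list, 19 were lower and 3 higher in treated G93A mice (median -0.875), and 5 fell beyond 2-fold. Chodl, a marker of fast motor neurons, was at 3.43, 4.27, 2.51 and 4.00 CPM in treated G93A mice and at 30.8, 25.3, 30.4 and 28.7 CPM in treated WT mice (log2 fold change -3.02, standard error 0.19, adjusted p = 3.43e-10). Chat, which makes acetylcholine, was at 19.3, 16.1, 14.7 and 19.1 CPM against 31.8, 34.3, 36.7 and 34.0 CPM (log2 fold change -0.99, standard error 0.099). Groups overlapped in neither gene. Slc18a3, which loads acetylcholine into vesicles, fell by 1.40, the choline transporter gene Slc5a7 by 1.16 and Vipr2, a receptor of vasoactive intestinal peptide, by 2.53. The 3 that rose were Gfra1, a receptor of glial growth factors (0.36), Uts2, the peptide urotensin (0.60), and Grb14, an adaptor of growth factor receptors (0.69). The call of Uts2 was lost in 8 of 20 alternatives, without G93A replicate 14 or 16 and without WT replicate 5, 6 or 7 among them.

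The same list was compared between treated and untreated mice. The G93A change in the motor neuron list had a median of -0.875 in treated and -0.64 in untreated mice, and 6 of its 24 genes had an unadjusted p under 0.05 in the test of the difference between treatments, beside 2.34% of all genes tested. None of them passed after adjustment. In untreated mice the level of Chat was 22.3 ± 2 CPM with the transgene and 29.7 ± 3.14 CPM without it (SD, 4 mice each), a log2 fold change of -0.41, and the difference between the treatments was -0.57 on the log2 scale (standard error 0.14, unadjusted p = 0.000661, adjusted p = 1 by quasi-likelihood in edgeR). For Slc18a3 the change was -1.40 in treated and -0.78 in untreated mice, and for Vipr2 it was -2.53 and -1.22. The other three, Prph, Isl1 and Mmp9, were picked after their values were seen. Prph, a neurofilament-like protein of motor neurons, changed by -1.08 and -0.56, Isl1, a transcription factor of these cells, by -0.84 and -0.23, and Mmp9, a protease of fast motor neurons, by -2.20 and -1.61. These 6 genes are those that the unadjusted p selected, and no direction is read from them.

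The axonal cytoskeleton and synapses showed lower levels as well. Of 15 genes of neurofilaments and the axonal cytoskeleton, 12 fell and 1 rose (median -0.65). Nefl, the light neurofilament, was at 1219, 1419.7, 1531 and 2098 CPM in treated G93A mice and at 3979, 3970.4, 3842 and 4186 CPM in treated WT mice (log2 fold change -1.35, standard error 0.14, adjusted p = 3.98e-07). Nefm and Nefh, the medium and heavy chains, fell by 1.33 and 1.49, and with Nefl they were among the 5 called genes that lost the most CPM. Replicate 16 had the highest level of each in the G93A group. The member that rose was Gap43, a growth cone protein (0.39).

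Of the axon injury list, 15 of 25 genes rose and 3 fell (median 0.39). Atf3, a transcription factor of injured neurons, was at 33.6, 32.6, 40.9 and 27.1 CPM against 3.65, 0.968, 2.93 and 0.907 CPM (log2 fold change 4.00), and Sprr1a, a protein of regenerating axons, changed by 6.05. Gal, the neuropeptide galanin, was not called (0.032, adjusted p = 0.916). The 3 that fell were the neuropeptide gene Npy (-0.44), the cytokine receptor gene Lifr (-0.41) and Flrt3 (-0.19), a membrane protein of axon guidance. None of these 3 was called in the fit with the Hox score, and the number lower was 1 without G93A replicate 13 or without WT replicate 7. Across 20 alternatives Flrt3 lost its call in 9 and Npy in 6.

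Of 27 tested synaptic genes, 22 fell and none rose (median -0.52). Snap25, a protein of vesicle fusion, was at 873, 1022, 1095 and 1330.5 CPM in treated G93A mice and at 1796, 1850.1, 1839.7 and 1972 CPM in treated WT mice (log2 fold change -0.79, adjusted p = 9.71e-05). Genes of inhibitory transmission fell in 14 of 18 cases (median -0.565), with the glycine transporter gene Slc6a5 at 94.7, 129, 171 and 216 CPM against 279.7, 351, 257 and 351 CPM (log2 fold change -1.02) and the GABA-synthesizing enzyme gene Gad1 at -0.39. Of 17 tested neuronal glutamate receptors and transporters 12 fell (median -0.56), among them the vesicular transporter gene Slc17a6 (-0.79). Voltage-gated channels fell in 18 of 22 cases and rose in 1 (median -0.62). The channel subunit gene Kcns1 was the exception, at 35.5, 33.0, 35.8 and 32.7 CPM against 8.52, 10.8, 10 and 9.66 CPM (log2 fold change 1.81). Peptides and receptors of the dorsal horn, where sensory input arrives, fell in 4 of 14 cases (median -0.11), and in 2 to 4 when each treated mouse was left out. That share was under the share called over all genes (41.5%). The peptide genes Tac1 (-0.038) and Penk (-0.15) were not called. In the fit with the Hox score, 9 of the inhibitory genes and 1 of the dorsal horn genes were lower. Slc6a5 was not called in that fit.

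**Figure D4:**
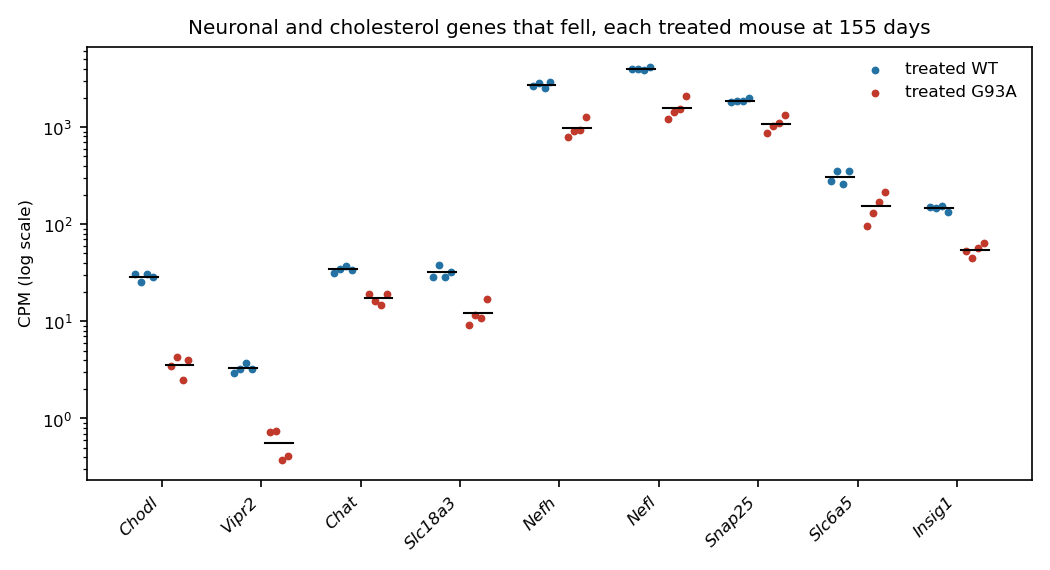
CPM on a log scale of 8 neuronal genes and Insig1, of the cholesterol synthesis list, in each treated mouse at 155 days (points; lines are group means of 4 mice). The G93A mice lie below the WT mice in each gene, with the widest gap for Chodl, at 4.27 CPM or less against 25.3 CPM or more.

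In the central myelin list, 7 of 22 genes rose, 2 fell and 13 were not called, which is near the share called over all genes (41.5%), with a median of 0.0285 that lay between -0.0225 and 0.0054 under other scalings. Mbp, the myelin basic protein, was not called (log2 fold change 0.10, standard error 0.079). Cldn11, which seals myelin sheaths, was at 417, 401, 414 and 401 CPM against 212, 195, 225 and 212 CPM (log2 fold change 0.95), and the heat shock protein gene Cryab rose by 0.76. Precursor genes of the same lineage rose in 10 of 17 cases and fell in none (median 0.43), with Gpr17, a receptor of cells that are about to form myelin, at 104, 106, 99 and 99.1 CPM against 44.9, 43.2, 42.6 and 53 CPM (log2 fold change 1.15). With the Hox score as a covariate, 3 myelin genes were higher and 4 lower.

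Of 20 tested p53 targets and cell death genes 19 rose (median 1.36; 18 or 19 under each other scaling), with Gdf15, a secreted stress signal, changed by 4.89 and Cdkn1a, the cell cycle inhibitor p21, not called (0.91, adjusted p = 0.136). Of 22 cell cycle genes, 19 rose and 1 fell (median 1.38). Mki67, the proliferation marker Ki-67, was at 14.4, 13.2, 9.20 and 11.7 CPM in treated G93A mice and at 1.22, 0.968, 0.952 and 0.942 CPM in treated WT mice (log2 fold change 3.57, standard error 0.24), and the one that fell was Ccne1, a cyclin of the entry into DNA synthesis (-0.66).

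Antioxidant and stress genes rose in the larger part. Over all genes tested, 23.3% were called higher and 18.2% lower. Of 23 tested Nrf2 targets and antioxidant enzymes, 15 rose and 2 fell (median 0.45; 13 rose under each other scaling and with the Hox score as a covariate). Hmox1, heme oxygenase, was at 39.5, 42.6, 41.4 and 27.9 CPM against 3.95, 4.98, 3.96 and 3.94 CPM (log2 fold change 3.17, standard error 0.23), and Nqo1, a quinone reductase, rose by 1.06. Gclm, of glutathione synthesis, was not called (-0.080, adjusted p = 0.474), and Sod2, the mitochondrial superoxide dismutase, fell by 0.43 on the log2 scale. Of 21 genes of the unfolded protein and heat shock response, 14 rose and 2 fell (median 0.35; 13 rose under each other scaling). Ddit3, the stress factor CHOP, changed by 1.29 and Hspb1, a small heat shock protein, by 3.59. Nuclear genes of the respiratory chain fell in 11 of 22 cases and rose in 2 (median -0.22). The number lower was 13 to 15 under other scalings and 3 with the Hox score as a covariate. Ndufa4, a subunit of the chain, fell by 0.40, and the 2 that rose, Cox6a2 (4.78) and Cox7a1 (1.32), encode forms best known from muscle.

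Markers of vessels and of other cells were examined for their part in the tissue. Over all genes tested, 41.5% were called, 23.3% higher and 18.2% lower. Of 18 endothelial genes 4 rose and 2 fell, a share under that over all genes (median 0.0192, which changed sign under other scalings). The adhesion receptor gene Icam1 was at 23.5, 19.9, 20 and 16.9 CPM against 3.16, 2.76, 2.38 and 1.43 CPM (log2 fold change 3.05), whereas Cldn5, of the tight junctions of the barrier, was not called (0.12, adjusted p = 0.655). No endothelial gene was lower without G93A replicate 13 or 14 or without WT replicate 6, 7 or 8. Of 12 pericyte and smooth muscle genes 5 rose and 3 fell, and 3 rose without G93A replicate 13, without WT replicate 7 or in the fit with the Hox score. Of 20 fibroblast and matrix genes 12 rose and 3 fell (median 0.44), with Postn, a matrix protein of healing tissue, changed by 3.50 and Col4a2, of basement membranes, by -0.66. When each treated mouse was left out in turn, 8 to 11 of these matrix genes rose and 2 to 5 fell. In the fit with the Hox score 10 rose and 1 fell.

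T and NK cell genes were near the limit of detection. Of 20 listed, 7 passed the low-count filter and 3 of these were called, all higher, beside 41.5% called over all genes (23.3% higher). Cd3g, of the T cell receptor complex, was at 0.728, 0.515, 0.713 and 0.653 CPM in treated G93A mice and at 0.190, 0.108, 0.0733 and 0.14 CPM in treated WT mice (log2 fold change 2.32, adjusted p = 0.000162). Cd8a, of cytotoxic T cells, was at 0.312, 0.625, 0.509 and 0.367 CPM against 0 to 0.038 CPM. The summed level of the list was 5.63 to 7.60 CPM with the transgene and 2.87 to 5.02 CPM without it. Of 3 tested B cell genes 1 was called and lower, Ighm, an antibody heavy chain (-0.73). Neutrophil and monocyte genes had 1 of 5 called, Vcan (0.81), a matrix proteoglycan that precursor cells of oligodendrocytes also make. Of 8 tested genes of border macrophages 4 rose, and Mrc1, the mannose receptor, was at 1.94, 1.88, 1.77 and 2.45 CPM against 1.37, 1, 0.769 and 1.53 CPM (log2 fold change 0.77). The count of border macrophage genes higher was 3 under each other scaling, without each treated mouse in turn and in the fit with the Hox score. Mrc1 was not called in the fit with the Hox score. Red blood cell genes, with 1 of 6 called and lower, and ependymal genes, with 2 higher and 2 lower of 15, had few calls, and without G93A replicate 14 there were 6 ependymal genes lower. Circadian clock genes had 3 higher and 6 lower of 16, with Bhlhe41, a repressor of the clock, changed by 0.79. Immediate early genes had 7 higher and 2 lower of 14 (median 0.41), with Fos changed by 1.36 and Arc, a gene of neuronal activity, by -0.66. When each treated mouse was left out in turn, 5 to 7 of the immediate early genes rose and 1 to 2 fell. Muscle genes had 1 higher and 2 lower of 9. The shares called of the B cell, neutrophil and monocyte, and muscle genes were under that over all genes (41.5%). Of 11 sensory ganglion genes listed, 5 were tested, with 1 higher and 2 lower. The 2 lower were Isl2, also in the motor neuron list, and Nefh, given with the neurofilaments. The member that rose was Avil.

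Single mice stood apart in markers of other tissues. Alb, the liver's albumin, was at 86.6 CPM in G93A replicate 15 and between 0 and 2.61 CPM in the other 7 mice, and the 6 tested liver genes had 1 call, Apoa1 (3.88, adjusted p = 0.0408). None of them was called without replicate 15 or without any 1 of the WT mice, and without replicate 15 their median was -0.0427 in place of 4.11. The score of the Schwann cell and nerve root list was 4.01 in G93A replicate 14 (next mouse of its group 3.42) and 3.73 in WT replicate 6 (next 3.05). Of the 12 tested genes of Schwann cells and nerve roots 4 rose and 1 fell, near the share called over all genes (41.5%). Without G93A replicate 14 the counts were 2 and 2. The part of such tissue in other results was not tested.

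Hox genes mark the level of the cord from which tissue came, and they differed between the groups. Of 11 caudal Hox genes 7 were lower in treated G93A mice and none higher (median -1.34), a count that lay between 1 (without WT replicate 5) and 5 when each treated mouse was left out, while of 12 rostral ones 1 rose and none fell (median 0.0694). Hoxd10 was at 0.243, 9.82, 9.50 and 4.69 CPM in treated G93A mice and at 34.9, 31.3, 25.9 and 31.5 CPM in treated WT mice (log2 fold change -2.35, standard error 0.81, adjusted p = 0.0263), a call lost in 7 of 19 alternatives, with DESeq2 and without G93A replicate 13 or 16 or WT replicate 5 among them. G93A replicate 13 lay far below the other mice of its group, and yet no G93A mouse reached a WT mouse. Hoxd11 was at 0, 2.06, 0.441 and 1.02 CPM against 4.53, 6.38, 2.82 and 4.29 CPM (log2 fold change -2.37, adjusted p = 0.0187; call lost in 4 of 19 alternatives, without G93A replicate 15 or WT replicate 6 among them). Hoxd13 was lower at 0.0679 to 0.184 CPM against 0.342 to 0.753 CPM (log2 fold change -2.34, adjusted p = 0.00218), and not called in the fit with the Hox score. A score over the caudal list, the mean log2(CPM + 1), lay between 2.27 and 3.33 in treated G93A and between 3.85 and 4.12 in treated WT mice, so that genotype and score do not overlap and their parts cannot be told apart by this design. With that score added to the fit, 5177 genes were called. Of the 7747 genes called without it 4898 (63.2%) were still called, all in the same direction, which is 71.1% of the higher and 53.1% of the lower ones. Among lists, disease-associated microglia had 27 genes higher with the covariate, reactive astrocytes 24, cholesterol synthesis 22 lower and motor neurons 17 lower.

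The mice of the G93A group differed in how far each was from WT mice. The score of disease-associated microglia, the mean log2(CPM + 1) of the list, was 7.56, 7.39, 7.28 and 7.12 in replicates 13, 14, 15 and 16, and 4.08 to 4.18 in treated WT mice. That of the motor neuron list was 3.58, 3.71, 3.65 and 3.94, against 4.42 to 4.51. Replicate 13 was the highest of its group in the microglial and the lowest in the motor neuron score, and replicate 16 was the reverse.

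Ide and its neighbours on chromosome 19 were compared between treated and untreated mice. This list was written with earlier results of these data known, so its counts describe chosen genes. Of Ide and 6 neighbours, 5 rose and 1 fell in treated mice (median 1.11), while the median in untreated mice was -0.097. In the test of the difference between treatments, 3 of the 7 had an unadjusted p under 0.05, beside 2.34% of all genes tested. Those 3 had the smallest p-values of that test among all genes tested. Ide, an enzyme that degrades insulin and amyloid beta, was at 81.1, 86.9, 86.9 and 79.0 CPM in treated G93A mice and at 34.0, 38.0, 31.9 and 39.9 CPM in treated WT mice (log2 fold change 1.22, standard error 0.15, adjusted p = 2.50e-06). Untreated G93A mice had 72.4 ± 13.7 CPM and untreated WT mice 68.6 ± 16.1 CPM (SD, 4 mice each). The score of the 7 genes was 4.08, 4.16, 4.16 and 4.1 in treated WT mice, and 4.68, 4.58, 4.72 and 4.09 in untreated WT replicates 1 to 4. Untreated WT replicate 4 thus lay among the treated WT mice, and the other untreated WT mice lay above them. The cause of this split was not tested. G93A mice were at 4.79 to 4.85 when treated and at 4.56 to 4.84 when not. For Ide the difference between treatments was 1.14 on the log2 scale (standard error 0.21, adjusted p = 0.358). Btaf1, a regulator of the TATA-binding protein, was at 38.7, 44.5, 46.0 and 42.7 CPM against 22.4, 15.7, 23.4 and 18.2 CPM, with a change of 1.11 in treated and -0.30 in untreated mice. Fgfbp3, a carrier of growth factors, changed by 0.75 and -0.19. Hhex, a transcription factor in the same group, was higher in both comparisons (2.12 and 1.57).

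**Figure D5:**
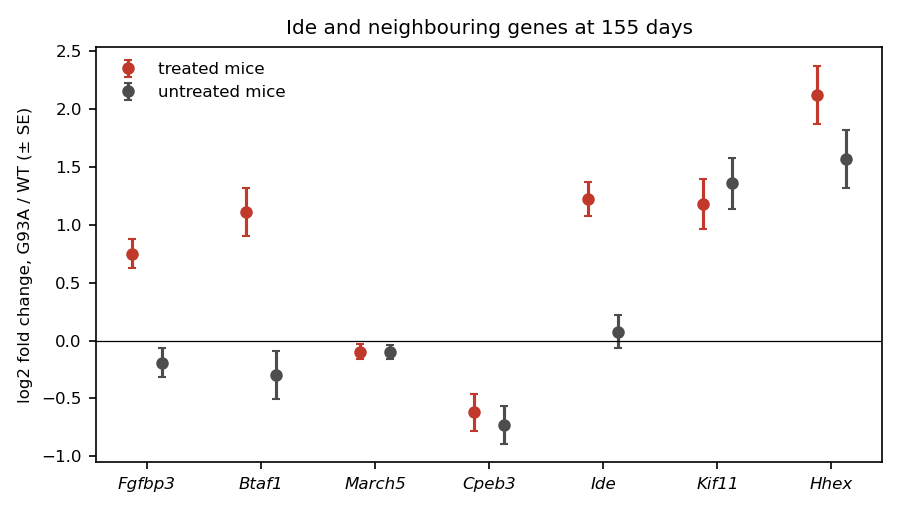
Log2 fold change of G93A over WT mice at 155 days for Ide and 6 neighbouring genes, in treated (red) and untreated (grey) mice, with standard errors from the fit of 16 mice. Fgfbp3, Btaf1 and Ide are above 0 in treated mice (0.75, 1.11 and 1.22) and near or below it in untreated mice (-0.19, -0.30 and 0.077).

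Across all genes, the G93A change was not shown to differ between treated and untreated mice. In untreated mice 7378 genes were called (39.5%), 3981 higher (21.3%) and 3397 lower (18.2%), and 8823 had an unadjusted p under 0.05 (47.2%). In the test of the difference itself by edgeR's quasi-likelihood test, 0 genes passed an adjusted p of 0.05 and 437 (2.34%) had an unadjusted p under 0.05. DESeq2 called 2 genes and edgeR's likelihood ratio test 3. Treated mice were more alike within a group than untreated mice: over the 15511 genes at 1 CPM or more, the median SD of log2 CPM within a group was 0.11 in both treated groups and 0.15 in both untreated groups. The difference in spread was not tested.

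At the earlier age, treated G93A and treated WT mice differed in 0 of 18899 genes by edgeR's quasi-likelihood test, and 747 (3.95%) had an unadjusted p under 0.05. DESeq2 and the likelihood ratio test called 3 each. The disease-associated microglia list had 12 of 27 tested genes at an unadjusted p under 0.05, with a median log2 fold change of 0.28 beside 0.0056 over all genes, and the reactive astrocyte list had 8 of 24 (median 0.33). Gfap changed by 0.31 (unadjusted p = 0.0337). Cholesterol synthesis had 0 of 24 such genes (median 0.0129) and the motor neuron list 1 of 24 (median -0.047).

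The change between the ages was tested directly. The G93A change of treated mice differed between 155 days and the earlier age in 4557 of 19829 genes (23%), 2581 with a higher log2 fold change at 155 days (13%) and 1976 with a lower one (9.97%). All but 1 of the 28 disease-associated microglia genes changed more at 155 days, as did 22 of 25 reactive astrocyte genes. The change in 21 of 24 cholesterol synthesis genes and in 16 of 24 motor neuron genes was lower at 155 days. Among the largest age differences of called genes were those of Cd200r4, Atp6v0d2, Mcoln3, a channel of endosomes and lysosomes, Ms4a7, a membrane protein of macrophages, and Klrb1b, a lectin-like receptor. The lowest of called genes were those of Hoxd11, Il1f9, Klri1, Hoxc11 and Hoxd13. Il1f9 and Klri1 were at 3 counts or fewer in treated G93A mice at 155 days. The caudal Hox score of treated WT mice was 2.39 to 3.25 at the earlier age and 3.85 to 4.12 at 155 days. In treated G93A mice it was 1.9 to 3.54 and 2.27 to 3.33. With that score in the fit, 4642 genes had an age difference. Without replicate 5 of the treated WT mice of the earlier age the count was 3506, the lowest when each mouse was left out.

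Called genes were spread over the chromosomes, with 38.2% of tested genes on chromosome 17 to 45.1% on chromosomes 19 and X. Chromosome X had 18.8% higher and 26.4% lower, and chromosome 12 had 16.9% and 22%, against 28.2% and 16.9% on chromosome 19. Windows of 11 neighbouring tested genes with the most calls in 1 direction held immune genes. On chromosome 17, all 11 genes of a window of the MHC region rose (median 2.04), from H2-Oa to H2-Ab1 with Tap1, Tap2, Psmb8 and Psmb9, which prepare peptides for presentation. On chromosome 19, 10 of 11 genes rose in a window with the membrane protein genes Ms4a7, Ms4a4a, Ms4a6b and Ms4a6d of macrophages (median 3.24). Neighbouring genes of these families are close copies of each other, and their reads may be divided between them with error. Another window, on chromosome 18, had 9 of 11 genes higher (median 1.24) and held Cd74 and the interferon-induced GTPase gene Iigp1.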

How the data were processed

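RNA was extracted from spinal cord with TRIzol and sequenced from stranded mRNA libraries of 32 mice in 8 groups of 4. The table deposited by the authors holds raw counts of reads per gene, with no normalization. The sources used here differ on how the counts were made: the paper names Trimmomatic, STAR and HTSeq with a GENCODE annotation of GRCm38, while the submitters' processing notes list FastQC, STAR, featureCounts, edgeR and the builds GRCm39, mm39 and hg38. The counter and the annotation are therefore not settled. The table has 42524 gene IDs, of which 41218 (96.9%) were matched to a symbol of GENCODE M21, used for names, chromosome and neighbours only. All columns were assigned to a sample from its label.

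Counts were analysed in R 4.3.3 with edgeR 4.0.16: filtering of low counts, TMM factors, and quasi-likelihood tests on the 16 mice of 155 days with 1 coefficient per group, Benjamini-Hochberg adjustment and a threshold of 0.05. Changes beyond 2-fold were tested with glmTreat. The earlier age was fitted in its own 16 mice and the age difference in all 32. The tests were checked on simulated counts. List scores are means of log2(CPM + 1). Samples were grouped by their labels, which give no sequencing batch and do not say that mice came from separate litters. Precision is limited by the 4 mice per group and, for low genes, by depth.

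The genes named were the 10 largest increases and the 10 largest decreases among called genes with groups that did not overlap, the 5 largest gains and the 5 largest losses in CPM, the first 3 genes, the top 2 and a called member against the trend of each list, the 3 smallest p-values of the treatment difference, the 5 largest and 5 smallest age differences, and Sod1. At most 6 of each list are given. The members and the gene lists were chosen with earlier results of these data known. Of 810 list entries 806 were matched.

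Alternatives were other scaling factors, filters, thresholds and samples in the fit, a likelihood ratio test, DESeq2 1.42.0, a surrogate variable (sva 3.50.0), the caudal Hox score as a covariate, a replicate block and leaving out each mouse. Replicate numbers are shared only between ages. The deviations of same-numbered mice from their group means correlated between -0.215 and 0.0762, so the numbers were not taken as pairs. The human transgene was not analysed here.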

Additional observations from a re-analysis of the deposited data

Results flagged for a closer look

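In 158 groups of 4 mice examined, for list scores and named genes, 12 had a mouse that stood apart by Dixon's test, where chance gives 7.9, about 1 in 20. In the treated G93A group, replicate 14 had a Schwann cell score of 4.01 (next mouse 3.42) and Hoxd13 at 0.184 CPM (next 0.0816). Replicate 15 had a liver score of 3.27 (next 0.54) and a neutrophil and monocyte score of 0.75 (next 0.55). Cd200r4 was at 4.54 CPM in replicate 13 (next 3.31), and Tgm1 at 6.65 CPM in replicate 16, below the next at 16.1 CPM.

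In the treated WT group, replicate 6 had a Schwann cell score of 3.73 (next 3.05) and a score of the unfolded protein and heat shock list of 5.74, below the next at 5.89. Replicate 8 had the lowest score of the reactive astrocyte list, 3.32 (next 3.38), and of the cholesterol synthesis list, 5.67 (next 5.84). Its Cst7 level was 0.174 CPM (next 0.114), and its Vim level was 111 CPM (next 121). The G93A change of treated mice differed between the ages in 4557 genes by the test of the difference itself.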

How the results depend on the processing

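Without each mouse in turn, the genes called at 155 days numbered 6537 (without G93A replicate 13) to 7599, those higher 3730 to 4291, those lower 2807 to 3308, those beyond 2-fold 844 to 1012, those with a treatment difference 0 to 1 (1 without untreated WT replicate 4), those called at the earlier age 0, and those with an age difference 3506 to 4741. Changes beyond 2-fold numbered 616 with at least 10 counts in every mouse, 1750 beyond 1.5-fold and 336 beyond 4-fold. With a log2 fold change of at least 1 there were 1888 called genes, 1635 higher and 253 lower, and 1434 with an age difference. Genes lower numbered 2233 at an adjusted p under 0.01 and 1940 with the Hox score in the fit, and the age difference 2539 at an adjusted p under 0.01. At the earlier age, DESeq2, the likelihood ratio test and a fit of only the groups compared each called 3 genes, the fit with no filter 24, and 747 had an unadjusted p under 0.05. For the treatment difference these were 2 (DESeq2), 3 (likelihood ratio test), 8 (no filter) and 437 (unadjusted), with 1 for all 32 mice in one fit and 3 with the Hox covariate. Higher genes were 56.1% of the calls, and 47.9% with upper-quartile factors. A fit of only the groups compared at 155 days called 8758 genes, 4620 higher and 4138 lower. With the Hox covariate, fitted changes reversed for Hoxd11 (1.43), Hoxd10 (1.22), Hoxc10 (0.606) and Hoxc11 (1.49), genes of the score itself. Of 207 called genes among the 244 named, 165 were called under every alternative. The replicate block could be fitted only for the age difference, with 4624 genes against 4557 without it. No paired analysis was possible for the 155-day comparison because its groups share no replicate numbers. Genes at a few counts per mouse are limited by depth.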
